A study of Mus musculus with 2 samples.

Results

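Podocyte genes were examined by bulk RNA-Seq in sorted EpCAM-CD45-Nephrin-Pdpn+ kidney cells, a gate that selects on the podoplanin protein and removes cells that carry Nephrin. The set holds 8 genes out of 55471 in the deposited table, matched by symbol: *Podxl*, *Clic5*, *Pdpn*, *Ptpro*, *Nphs1*, *Synpo*, *Actn4* and *Wt1*. They were chosen by their known podocyte role and by their counts and TPM in both genotypes, since *Clic5* and *Podxl* had been seen as higher in VhlhKO. Their values in that comparison are therefore a description and carry no test.

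The study compared VhlhKO kidneys (*Hoxb7-Cre-GFP*/+; *Vhlh* loxP/loxP) with Ctrl kidneys (*Hoxb7-Cre-GFP*/+), both from untreated male C57BL/6J mice, with 1 sequenced library per genotype. Ctrl therefore also carries the Cre driver, although another entry for the Ctrl sample calls the mice wild-type with *Vhlh* loxP/loxP and names no Cre. The sample entries give an age of 12 weeks, their treatment text 8 to 12 weeks and the design text 10 to 12 weeks, and 6 mice are given per genotype. Each library came from pooled mice, and the methods are not uniform on how many entered a pool. The *Hoxb7* promoter drives Cre in kidney tubules, so the deletion was aimed at the tubular epithelium, and the sort was meant to leave those epithelial cells out. Whether any sorted cells carried the deletion was not tested. Several hours in endothelial medium lay between the sort and the extraction of RNA.

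Podocytes are the epithelial cells that wrap the glomerular capillaries with interlocking foot processes. Nephrin (*Nphs1*) is a main component of the slit diaphragm between these processes. On the apical side, the sialomucin podocalyxin (*Podxl*) keeps neighbouring processes apart by its negative charge and is tied to actin through Nherf scaffolds, ezrin and the chloride intracellular channel protein Clic5. Synaptopodin (*Synpo*) and alpha-actinin-4 (*Actn4*) organise the actin bundles of the foot process, and Wt1 is a transcription factor needed for podocyte identity. Several of these genes are used elsewhere: *Pdpn* in lymphatic endothelium, fibroblasts, mesothelium and parietal epithelium, *Podxl* in vascular endothelium and mesothelium, and *Wt1* in mesothelium and parietal epithelium.

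The VhlhKO library held 34465017 deposited counts and the Ctrl library 31817115, and TMM scaling turned them into CPM, counts relative to a common library size. Ratios printed for a gene are VhlhKO over Ctrl of these scaled counts, and the range after a ratio is its 95% exact (Clopper-Pearson) interval, which covers counting error only and not the spread between mice or pools. No difference has a replicate check, since each genotype was sequenced once. The log2 ratio was taken after adding 0.5 CPM to both sides, and a gene counts as measured where either library reached 20 counts, as 15275 genes did. Of the 8 podocyte genes, 7 were measured and *Ptpro* was not. In bulk samples, more cells of a type and more RNA per cell cannot be told apart.

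The promoters of 3 of these genes are shown first, because *Clic5* had the largest ratio of the measured genes in the set, *Nphs1* had the smallest, and *Pdpn* encodes the antigen of the sort. They are RefSeq windows on GRCm38.p6, from 250 bases before to 50 bases after the start site, and 5 of the 8 genes had one, the others being *Ptpro* and *Actn4*. Capitals mark the letters ACGTG, the core of the element bound by hypoxia-inducible factors, read on both strands. A core of the sequence bound by Wt1, GTGGGAG, was searched on both strands as well.
Clic5 (chr17:44188322-44188621, plus strand): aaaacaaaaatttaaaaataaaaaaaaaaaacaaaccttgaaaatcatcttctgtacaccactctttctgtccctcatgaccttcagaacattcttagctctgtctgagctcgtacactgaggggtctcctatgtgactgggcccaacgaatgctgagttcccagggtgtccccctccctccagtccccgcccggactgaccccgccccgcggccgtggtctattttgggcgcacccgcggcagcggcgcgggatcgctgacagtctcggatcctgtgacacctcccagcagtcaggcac
Nphs1 (chr7:30459808-30460107, plus strand): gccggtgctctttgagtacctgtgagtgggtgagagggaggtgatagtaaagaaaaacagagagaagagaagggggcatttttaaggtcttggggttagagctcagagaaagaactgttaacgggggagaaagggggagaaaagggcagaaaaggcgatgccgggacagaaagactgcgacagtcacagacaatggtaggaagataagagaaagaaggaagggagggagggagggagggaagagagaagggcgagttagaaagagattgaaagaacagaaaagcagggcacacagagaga
Pdpn (chr4:143299515-143299814, minus strand): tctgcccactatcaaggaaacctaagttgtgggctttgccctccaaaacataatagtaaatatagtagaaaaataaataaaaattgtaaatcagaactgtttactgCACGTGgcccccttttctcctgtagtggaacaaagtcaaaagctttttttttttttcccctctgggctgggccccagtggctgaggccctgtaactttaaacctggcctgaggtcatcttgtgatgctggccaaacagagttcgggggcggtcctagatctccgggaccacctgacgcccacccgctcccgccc

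ACGTG stood in the *Pdpn* window in 1 place, the palindrome CACGTG that is read on both strands, starting 144 bases before the start site, and in none of the other 4 windows. Of all 32851 RefSeq promoter windows of the same length, 19.6% hold it. GTGGGAG was in none of the 3 windows shown, was found once each in the *Ptpro* and *Actn4* windows, and is held by 9.73% of all windows. The *Clic5* window holds 16 CG dinucleotides, the *Pdpn* window 7 and the *Nphs1* window 6, against a median of 7 over all windows. The *Nphs1* start site of RefSeq lies 333 bases from the nearest start of a coding transcript in GENCODE M21. A match of letters is a description of the window and not of binding.

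On the apical membrane, *Podxl* and *Clic5* were higher in VhlhKO by several fold, while *Pdpn* had close values. *Podxl*, podocalyxin, is encoded on chromosome 6 of GRCm38, 31519488 to 31563981. There were 5206 counts (152 CPM) in VhlhKO against 1240 counts (38.8 CPM) in Ctrl, with a ratio of 3.90 (3.67 to 4.15) and a log2 ratio of 1.95. *Clic5*, on chromosome 17 from 44188584 to 44280172, had 5708 counts (166 CPM) in VhlhKO against 988 counts (31.0 CPM) in Ctrl. Its ratio was 5.37 (5.02 to 5.75) and its log2 ratio 2.41. By log2 ratio *Clic5* stood at place 10 and *Podxl* at place 26 of the 15275 measured genes.

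*Pdpn*, podoplanin, lies on chromosome 4 from 143267431 to 143299564. It had 2313 counts (67.3 CPM) in VhlhKO against 1836 counts (57.5 CPM) in Ctrl, with a ratio of 1.17 (1.10 to 1.245). The interval lies above 1, but the size is small beside that of *Podxl* and *Clic5*. The sort kept cells with podoplanin protein in both genotypes, so the *Pdpn* ratio describes cells already selected on its product. *Ptpro*, which encodes the podocyte receptor tyrosine phosphatase Glepp1, lies on chromosome 6 from 137252319 to 137463233. It had 13 counts in VhlhKO against 1 count in Ctrl, with a ratio of 12.1 with an interval of 1.81 to 513, so its transcript was near the limit of detection in both libraries. The plot of the 8 genes by library shows the gap between these near-absent transcripts and the abundant ones.

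**Figure D1:**
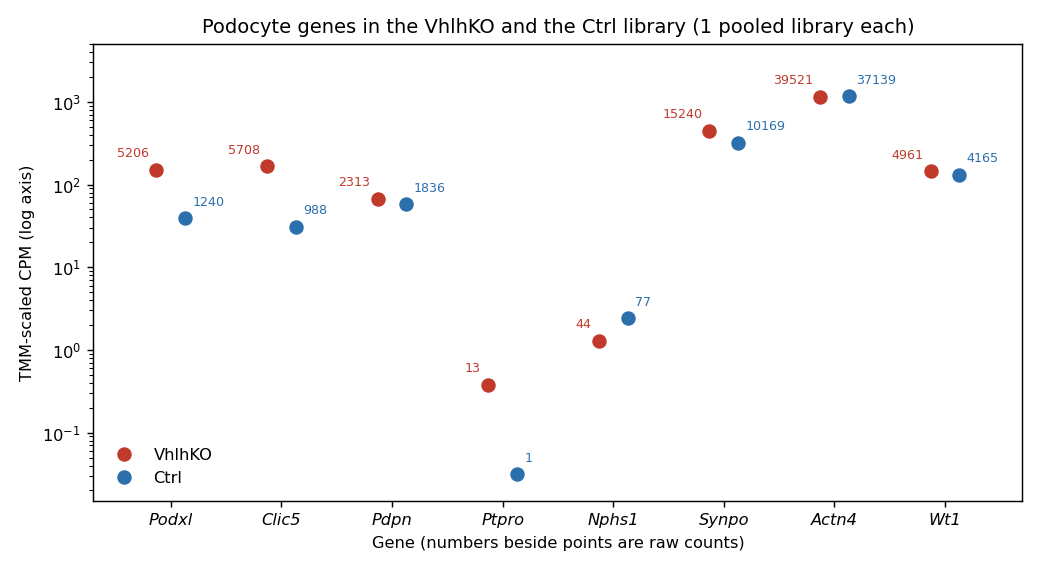
TMM-scaled CPM (log axis) of the 8 podocyte genes in the VhlhKO (red, left of each pair) and the Ctrl (blue, right) library, 1 pooled library each, with raw counts beside the points and no error bars. *Podxl* and *Clic5* are separated between libraries, *Pdpn*, *Actn4* and *Wt1* nearly overlap, and *Nphs1* and *Ptpro* sit far below the rest.

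The slit diaphragm gene *Nphs1* went the other way. It lies on chromosome 7 from 30458315 to 30487223 and had 44 counts (1.28 CPM) in VhlhKO against 77 counts (2.41 CPM) in Ctrl, with a ratio of 0.531 (0.358 to 0.779) and a log2 ratio of -0.71. The sort removed cells with Nephrin protein, so a low transcript level was built into the sample. The opposite strand of *Nphs1* holds the processed pseudogene *Rps12-ps4*, with 53 counts in VhlhKO and 66 in Ctrl, and 183 of its 397 bases lie in *Nphs1* exons. Whether counting used strand is not given in the sources used here, so part of the *Nphs1* count is uncertain.

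Among the actin organisers, *Synpo* was moderately higher in VhlhKO and *Actn4* had close values. *Synpo*, on chromosome 18 from 60593973 to 60660142, had 15240 counts (444 CPM) in VhlhKO against 10169 counts (319 CPM) in Ctrl, with a ratio of 1.39 (1.36 to 1.43). *Actn4*, on chromosome 7 from 28893248 to 28962340, had 39521 counts (1150.4 CPM) in VhlhKO against 37139 counts (1164 CPM) in Ctrl. Its ratio was 0.989 (0.975 to 1.00), and the interval holds 1. *Wt1*, on chromosome 2 from 105126529 to 105173616, had 4961 counts (144 CPM) in VhlhKO against 4165 counts (130.5 CPM) in Ctrl, with a ratio of 1.11 (1.06 to 1.15). Thus *Wt1* transcripts were well represented in both libraries and differed little.

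Read against the whole table, the set is uneven. Of the 7 measured genes, *Podxl* and *Clic5* were at least 1.5-fold higher in VhlhKO by the log2 ratio, where 4.75% of all measured genes were, and *Nphs1* was at least 1.5-fold lower, where 1.82% were. *Podxl* and *Clic5* were also at least 2-fold higher, as were 1.71% of the measured genes, and at least 3-fold higher, as were 0.412%. Among the 6531 genes that reached 1000 counts in either library, 0.322% were at least 3-fold higher. The counting interval lay above 1 for 5 of the 7 genes and below 1 for *Nphs1*, and over all measured genes for 19.0% and 17.3%. Since this contrast was in view when the genes were chosen, nothing is read from these counts.

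**Figure D2:**
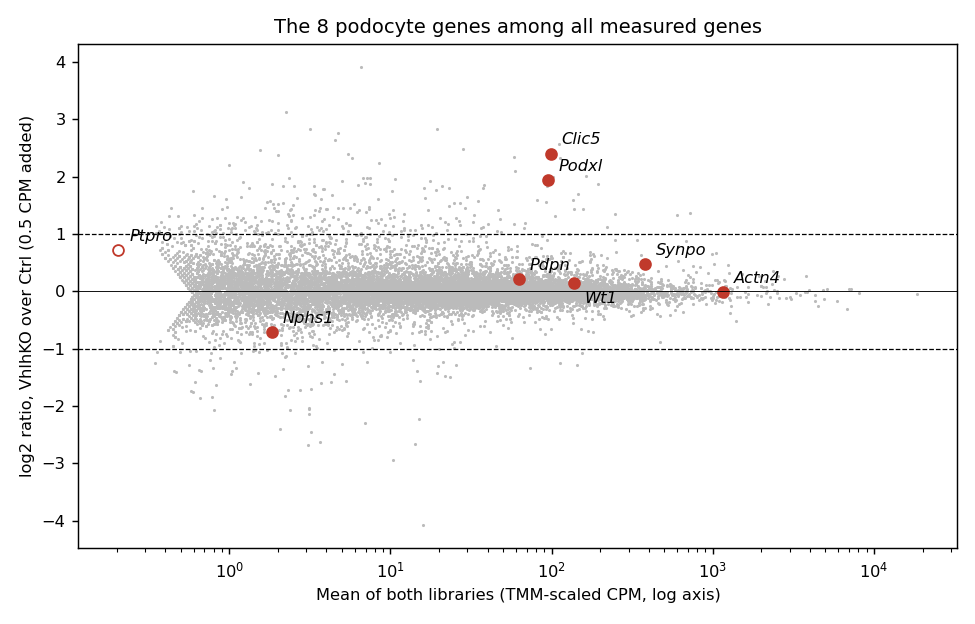
Log2 ratio of VhlhKO over Ctrl with 0.5 CPM added (vertical axis) against the mean of both libraries in TMM-scaled CPM (log axis) for 15275 measured genes (grey) and the 8 podocyte genes (red; *Ptpro*, open, had under 20 counts in both libraries). Dashed lines are at 2-fold, *Clic5* (2.41) and *Podxl* (1.95) lie above the upper line, and *Pdpn*, *Wt1*, *Actn4* and *Synpo* lie between the lines with most other genes.

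Levels of different genes were compared by the authors' TPM, which divides by gene length. *Actn4* had the highest TPM of the 8 genes in both libraries, 671 in VhlhKO and 681 in Ctrl. In VhlhKO the order below it was *Synpo* (166 TPM), *Pdpn* (132), *Podxl* (98.7), *Wt1* (83.3), *Clic5* (61.4), *Nphs1* (0.691) and *Ptpro* (0.201). In Ctrl *Podxl* stood below *Wt1*, and the order was *Synpo* (119.9 TPM), *Pdpn* (114), *Wt1* (75.6), *Podxl* (25.4), *Clic5* (11.5), *Nphs1* (1.31) and *Ptpro* (0.0167). *Podxl* and *Wt1* thus changed places: *Podxl* was 1.18 times *Wt1* in TPM in VhlhKO (1.14 to 1.23), and *Wt1* was 2.98 times *Podxl* in Ctrl (2.79 to 3.17).

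The closest neighbours were *Synpo* and *Pdpn* in Ctrl, 1.06-fold apart in TPM with a counting interval of 1.00 to 1.11, whose lower end is just above 1. The intervals of all other neighbours lay further above 1. *Clic5* had 88.8 times the TPM of *Nphs1* in VhlhKO and 8.79 times in Ctrl, which holds for this pair and not for the other genes of the apical and slit diaphragm lists, whose medians were near 0 without the 8 genes. The lengths implied by counts and TPM match the exon lengths of GENCODE M21 for 7 of the genes. For *Clic5* the implied length is 1.58 times that of *Actn4* where GENCODE M21 gives 1.43 times, so its TPM rests on another gene model and its place among the levels is less certain, while its ratio between libraries is not affected.

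**Figure D3:**
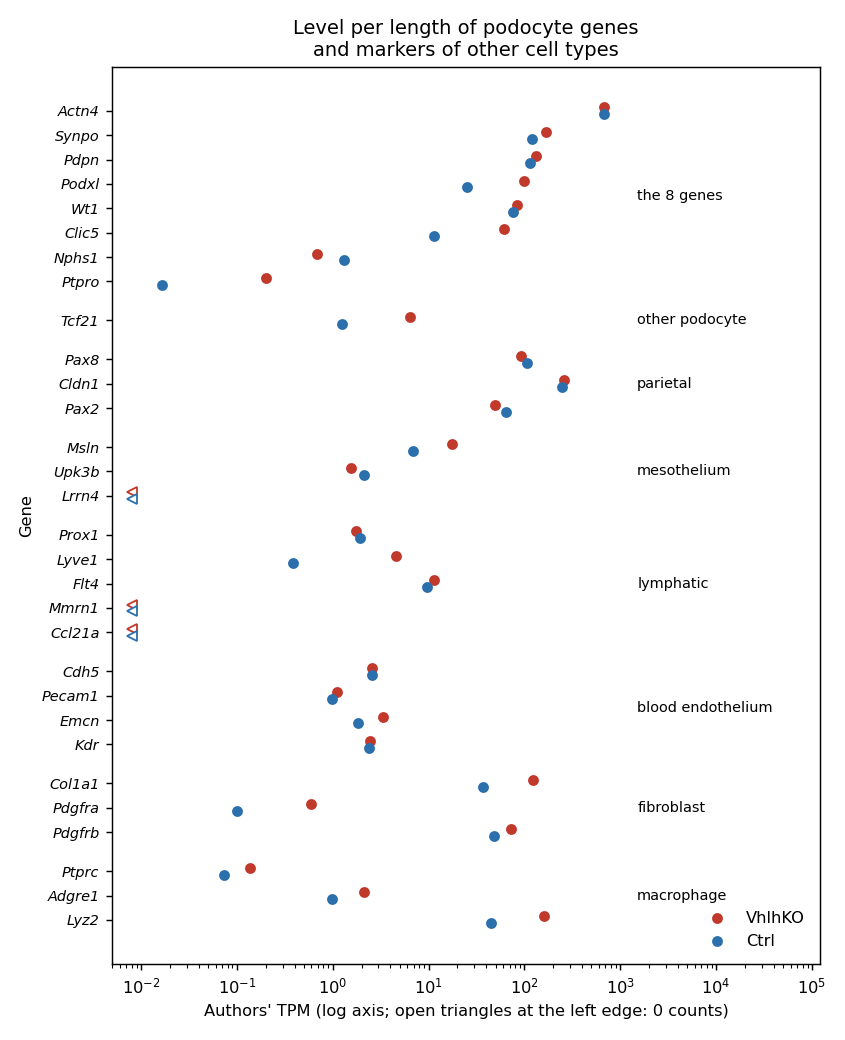
The authors' TPM (log axis) in the VhlhKO (red) and Ctrl (blue) library for the 8 podocyte genes, the podocyte factor *Tcf21* and defining markers of other cell types, 1 library per genotype. *Nphs1* and *Ptpro* lie below *Upk3b* and *Prox1* in both libraries. In VhlhKO, *Podxl* (98.7), *Wt1* (83.3) and *Clic5* (61.4) lie near the parietal markers *Pax8* (92.2) and *Pax2* (49.3). They lie below the parietal marker *Cldn1* (260) there. In Ctrl, *Podxl* (25.4) and *Clic5* (11.5) lie below *Pax8* (107), *Pax2* (63.7) and *Cldn1* (246). *Wt1* (75.6) lies between *Pax2* and *Pax8* in Ctrl. Open triangles are libraries with 0 counts.

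The other genes of these podocyte structures were taken from 6 lists, compiled with earlier results of these data known, which add 92 genes, 87 of them measured. Of the 87, 5 were past 2-fold toward VhlhKO and 0 toward Ctrl, and at 1.5-fold the numbers were 11 and 1. Over all measured genes 1.71% were past 2-fold toward VhlhKO and 0.524% toward Ctrl, and 4.75% and 1.82% were past 1.5-fold toward VhlhKO and Ctrl. The median log2 ratio of the 87 genes was 0.05, against -0.0007 over all measured genes. Most of the podocyte genes outside the 8, 75 of 87, were therefore within 1.5-fold between the libraries. The transcription factor list stood apart from this, with a median log2 ratio of 0.49 without *Wt1*.

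In the slit diaphragm list, 0 of the 17 other measured genes were past 2-fold in either direction, with a median log2 ratio of 0.09. *Magi2*, a scaffold that binds nephrin, had 413 counts in VhlhKO against 248 in Ctrl, with a ratio of 1.55 (1.32 to 1.82). *Plce1*, a phospholipase C needed for glomerular development, had 721 and 449 counts in VhlhKO and Ctrl, a ratio of 1.49 (1.32 to 1.68). The nephrin-like *Kirrel* was abundant in both libraries, with 14942 counts in VhlhKO and 12255 in Ctrl (1.13, 1.11 to 1.16), as was the adaptor *Cd2ap* with 6042 and 5584 counts (1.01, 0.969 to 1.04). The giant cadherin *Fat1* had 57401 counts in VhlhKO against 43161 in Ctrl, with a ratio of 1.24 (1.22 to 1.251). Scaffolds and adaptors of the slit diaphragm were thus present at many times the counts of *Nphs1*, and they are also used in other epithelia.

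Of the 12 other apical membrane genes, 1 was at least 2-fold higher and 0 were lower by 2-fold, with a median log2 ratio of 0.01. That gene was *Cd34*, a sialomucin of the same family as podocalyxin, with 204 counts in VhlhKO against 76 in Ctrl, with a ratio of 2.49 (1.91 to 3.29). *Slc9a3r2*, the Nherf2 scaffold that links podocalyxin to ezrin, had 1751 counts in VhlhKO against 1016 in Ctrl, with a ratio of 1.60 (1.48 to 1.73). The third family member, *Podxl2*, had 348 and 246 counts in VhlhKO and Ctrl, a ratio of 1.31 (1.11 to 1.55). The sialomucins and Nherf2 were therefore above 1, by less than *Podxl* itself.

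The linkers to actin differed little. *Ezr*, ezrin, had 10157 counts in VhlhKO and 8460 in Ctrl (1.12, 1.08 to 1.15), *Slc9a3r1*, the Nherf1 scaffold, had 2779 and 2690 (0.960, 0.910 to 1.01), and *Msn*, moesin, had 99364 and 101413 (0.910, 0.902 to 0.918). *Eps8*, an actin-capping protein, was lower, with 893 counts in VhlhKO and 1091 in Ctrl (0.761, 0.695 to 0.832). Of the CLIC family, *Clic1* (0.955, 0.932 to 0.978) and *Clic4* (1.05, 1.03 to 1.07) had close values at 13408 and 23916 counts in VhlhKO against 13045 and 21099 in Ctrl. *Clic3* and *Clic6* had at most 13 counts in either library, so *Clic5* was the 1 family member past 2-fold.

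Partners of podoplanin were also close between libraries. Of 10 measured genes of its partners and glycosylation, 0 were past 1.5-fold, and the median log2 ratio was 0.10. *St3gal1*, a sialyltransferase that caps O-linked sugars, had 3914 counts in VhlhKO against 2457 in Ctrl, with a ratio of 1.48 (1.41 to 1.56). *Cd44*, a hyaluronan receptor that binds podoplanin, had 10778 and 9113 counts in VhlhKO and Ctrl (1.10, 1.07 to 1.13). *Clec1b*, the platelet receptor for podoplanin, had 5 counts in VhlhKO and 2 in Ctrl, and *Ccl21a*, a chemokine that podoplanin binds, had 0 in both.

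In the foot process actin list, 0 of the 19 other measured genes were past 1.5-fold, with a median log2 ratio of -0.06. The *Actn4* paralog *Actn1* had 36548 counts in VhlhKO and 38578 in Ctrl (0.880, 0.868 to 0.893), and the *Synpo* paralog *Synpo2* had 194 and 132 (1.37, 1.09 to 1.72). *Pdlim2*, which binds alpha-actinin, had 769 counts in VhlhKO and 548 in Ctrl (1.30, 1.17 to 1.46). The actin machinery was high in both libraries and close between them, with *Synpo* the furthest from 1 in this list by log2 ratio, at 0.48.

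Among the 9 other measured transcription factors, 4 were at least 1.5-fold higher and 0 lower, with a median log2 ratio of 0.49. *Tcf21*, a basic helix-loop-helix factor of podocytes and kidney stroma, had 144 counts in VhlhKO against 26 in Ctrl, with a ratio of 5.15 (3.37 to 8.14). *Lmx1b*, the LIM homeobox factor whose human mutations cause nail-patella syndrome, had 1387 counts in VhlhKO against 430 in Ctrl, with a ratio of 3.00 (2.69 to 3.35). These were the 2 of 9 other measured factors past 2-fold, and 0 were lower by 2-fold. *Dach1* (443 counts in VhlhKO and 216 in Ctrl, 1.91, 1.62 to 2.25) and *Foxd1* (1527 and 858, 1.65, 1.52 to 1.80) were past 1.5-fold.

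In the basement membrane list, 1 of 13 genes was past 1.5-fold, with a median log2 ratio of 0.06. *Col4a3* and *Col4a4*, which encode collagen IV chains of the mature glomerular basement membrane, had 4904 and 4129 counts in VhlhKO and 2984 and 2875 counts in Ctrl. Their ratios were 1.53 (1.46 to 1.60) and 1.33 (1.27 to 1.40). The list of other podocyte-enriched genes had 17 measured, and 2 of them were past 2-fold toward VhlhKO. *Htra1*, a secreted serine protease, had 5601 counts in VhlhKO against 1295 in Ctrl, with a ratio of 4.02 (3.78 to 4.27). *Gas1*, a surface protein that binds hedgehog ligands, had 1460 and 482 counts in VhlhKO and Ctrl, a ratio of 2.81 (2.54 to 3.13). The cell cycle inhibitor *Cdkn1c*, strong in mature podocytes, was lower, with 80 counts in VhlhKO and 120 in Ctrl (0.619, 0.461 to 0.829). The thin-filament gene *Nebl* (1073 and 620 counts in VhlhKO and Ctrl, 1.61, 1.46 to 1.78) completes the genes past 1.5-fold.

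**Figure D4:**
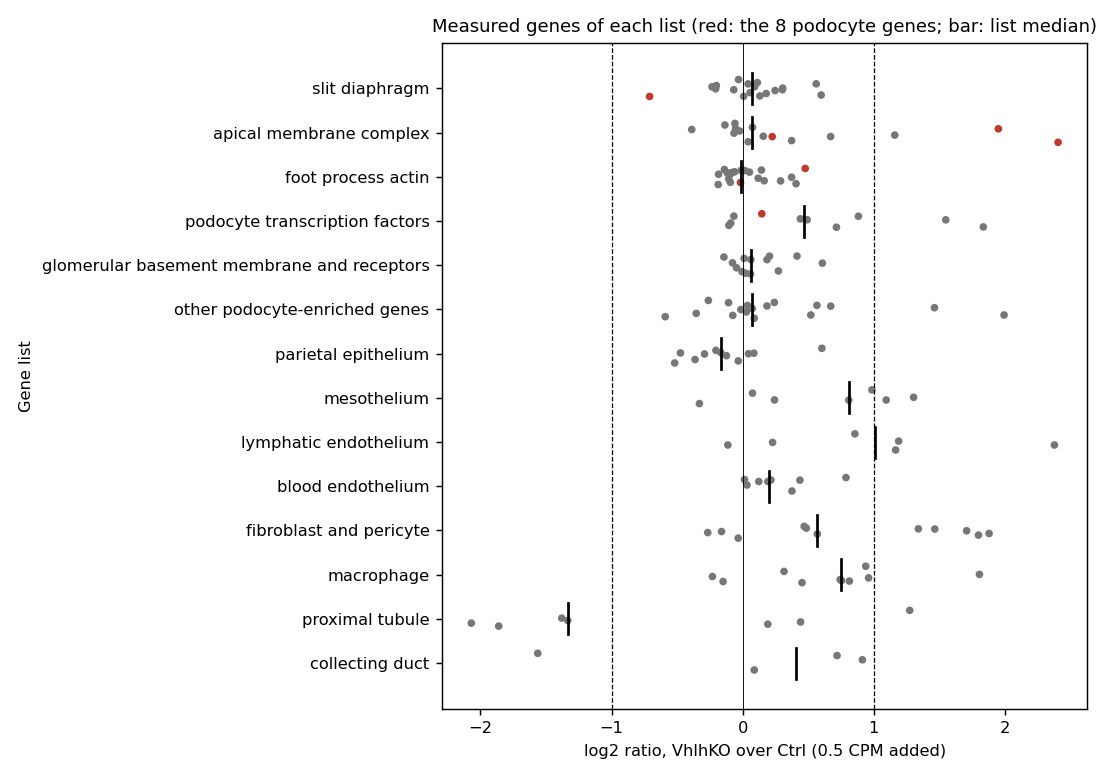
Log2 ratio of VhlhKO over Ctrl (0.5 CPM added) for each measured gene of 6 podocyte lists and 8 marker lists of other cell types, with the 8 podocyte genes in red, list medians as black bars and dashed lines at 2-fold. *Clic5* and *Podxl* lie apart from the other apical genes, *Nphs1* is the lowest of the slit diaphragm list at -0.71, and most actin and basement membrane genes lie near 0.

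Markers of other cells that can use these genes moved as well, and their part in the values above was not tested. The 12 genes of the parietal epithelium, which lines the capsule around the glomerulus, summed to 8592 CPM in VhlhKO against 9860 CPM in Ctrl. *Akap12* alone gave 5563 CPM of this sum in VhlhKO and 6247 CPM in Ctrl. The defining markers were *Pax8* (156 CPM in VhlhKO and 180 in Ctrl), *Pax2* (74.5 and 96.0) and *Cldn1* (353 and 332). Past 2-fold were 0 of the 11 measured genes. By the log2 ratio, 2 of 7 measured mesothelial genes were at least 2-fold higher. These were *Msln* at 522 counts in VhlhKO and 187 in Ctrl (2.59, 2.19 to 3.08) and *Muc16* at 54 and 15. The ratios of *Krt19* (2.05, 1.74 to 2.42) and *Gpm6a* (3.25, 1.44 to 8.26) also passed 2 without the added 0.5 CPM. *Gpm6a* had 28 counts in VhlhKO and 8 in Ctrl. The defining marker *Upk3b* had 53 counts in VhlhKO and 66 in Ctrl (0.746, 0.510 to 1.09). The 10 mesothelial genes summed to 43.1 CPM in VhlhKO against 24.0 CPM in Ctrl, and *Lrrn4* had 0 counts in both.

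Of 8 measured blood endothelial genes 0 were past 2-fold, and the list of 12 summed to 51.4 CPM in VhlhKO against 41.0 CPM in Ctrl, with all 4 defining markers (*Cdh5*, *Pecam1*, *Emcn* and *Kdr*) above 0. Lymphatic genes had 3 of 6 measured past 2-fold toward VhlhKO, the 10 genes summed to 54.2 CPM in VhlhKO against 35.8 CPM in Ctrl, and *Mmrn1* and *Ccl21a* were at 0. The 3, counted by the log2 ratio, were *Lyve1* (128 counts in VhlhKO and 10 in Ctrl), *Gata2* (449 and 177) and *Itga9* (103 and 33). *Thy1* had a ratio above 2 without the added 0.5 CPM (2.04, 1.48 to 2.85). The lymphatic master regulator *Prox1* had 142 and 144 counts in VhlhKO and Ctrl. The defining marker *Flt4* had 898 counts in VhlhKO and 710 in Ctrl (1.18, 1.06 to 1.30). It was the largest part of the sum, with 26.1 CPM in VhlhKO and 22.2 CPM in Ctrl. In TPM the lymphatic list summed to 32.3 in VhlhKO and 18.7 in Ctrl, and the blood endothelial list to 38.2 in VhlhKO and 30.0 in Ctrl. Both sums were below the TPM of *Actn4*, *Synpo*, *Pdpn* and *Wt1* and far above those of *Nphs1* and *Ptpro* in either library, while *Podxl* and *Clic5* were above both sums in VhlhKO and below the blood endothelial sum in Ctrl.

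Fibroblast and pericyte genes had 5 of 11 measured at least 2-fold higher and summed to 7968 CPM in VhlhKO against 7584 CPM in Ctrl, and *Ren1* was at 0. The defining markers *Col1a1* (7666 counts in VhlhKO and 2169 in Ctrl), *Pdgfra* (57 and 9) and *Pdgfrb* (3773 and 2357) were all higher in VhlhKO, and the others past 2-fold were *Col1a2* (10432 and 2623), *Col3a1* (1248 and 322) and *Des* (29511 and 10821). The contractile genes *Tagln* and *Acta2*, which make up most of the sum, and the pericyte gene *Cspg4* were slightly lower, with ratios of 0.894 (0.888 to 0.901), 0.977 (0.967 to 0.987) and 0.831 (0.806 to 0.857). By the log2 ratio, macrophage genes had 1 of 10 at least 2-fold higher, *Lyz2* (2007 counts in VhlhKO and 522 in Ctrl), and summed to 119 CPM in VhlhKO against 66.7 CPM in Ctrl. Without the added 0.5 CPM, the ratios of *Adgre1* (2.19), *Tyrobp* (2.65), *Itgam* (2.50) and *C1qa* (2.03) were also above 2, *Ptprc* had 24 counts in VhlhKO and 12 in Ctrl, and *Csf1r* (0.844, 0.715 to 0.996) and *Cd14* (0.899, 0.807 to 1.00) were below 1. Of 7 measured proximal tubule genes, 4 were at least 2-fold lower and 1 was higher, with sums of 53.2 CPM in VhlhKO against 43.9 CPM in Ctrl, and *Slc34a1* had 0 counts in VhlhKO and 51 in Ctrl. The other lower ones were *Fbp1* (0 and 42), *Slc5a2* (1 and 28) and *Pck1* (8 and 43), and the higher one was *Aqp1* (66 and 16). The defining marker *Lrp2*, which carries most of the sum, had 1528 counts in VhlhKO and 1041 in Ctrl (1.36, 1.26 to 1.48), and *Cubn* had 220 and 177 (1.15, 0.943 to 1.42). Of 4 measured collecting duct genes 1 was at least 2-fold lower, *Hsd11b2* (83 counts in VhlhKO and 259 in Ctrl), the list summed to 69.0 CPM in VhlhKO against 67.2 CPM in Ctrl, and *Aqp2* and *Avpr2* were at 0 in both. *Epcam*, whose protein was used for depletion, had 155 counts in VhlhKO and 69 in Ctrl (2.09, 1.56 to 2.81), and *Gata3* had 121 and 62 (1.81, 1.32 to 2.50). *Hoxb7*, whose promoter drives Cre in these mice, had 2008 counts in VhlhKO and 1754 in Ctrl (1.06, 0.997 to 1.13), so its transcript was present in the sorted cells of both genotypes.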

How the data were processed

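Poly(A)-selected, strand-specific libraries of EpCAM-CD45-Nephrin-Pdpn+ cells from pooled kidneys were sequenced, 1 library per genotype. Among the tools in the submitters' processing notes are STAR, featureCounts, cutadapt and DESeq2, with the builds mm10 and GRCm38. Their versions and settings, strand included, were not stated there. The deposited gene table gives the authors' unscaled read counts beside the authors' TPM, which correct for gene length and library total. The authors' deposited log2 fold changes and p-values of their own comparison were not used.

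TMM factors from edgeR 4.0.16 under R 4.3.3 were 0.997 in VhlhKO and 1.003 in Ctrl. Intervals are exact conditional binomial intervals of the scaled count ratio, and PCR copies are not independent molecules, so they cover counting error only. For 113 symbols shared by several gene IDs, the most counted ID was kept. GENCODE M21 supplied the coordinates. No test was possible, and the members and the 17 gene lists were chosen with earlier results of these data known. Genes named are the 8 members, defining markers, list genes past 2-fold and up to 4 per list that lie farthest from 0 in log2 ratio. Others, such as *Kirrel*, *Cd2ap*, *Podxl2*, *Eps8*, *Slc9a3r1*, *Msn*, *Clec1b*, *Clic3*, *Clic6*, *Ren1*, *Tagln*, *Acta2*, *Cspg4*, *Itgam*, *Csf1r*, *Cd14*, *Cubn* and *Rps12-ps4*, were picked after their values were seen. The ratio and interval code was tested on simulated counts. Alternatives were other scalings, the authors' TPM, pseudocounts, count minimums and fold sizes. Intervals were computed with scipy 1.17.1 in Python 3.11.15. Some list genes are not reported here by name.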

Additional observations from a re-analysis of the deposited data

How the results depend on the processing

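No paired analysis was possible because each genotype has 1 library. Of 49 values of the 8 genes' log2 ratios under the alternatives, 47 stayed within counting error of the values above, and none changed sign. Some of the 49 could not move, because a changed count minimum leaves the log2 ratio of a gene as it is. The sole alternative value of *Ptpro* is of this kind. With 5 CPM added, *Podxl* was at 1.84 and *Clic5* at 2.25, and *Nphs1* at -0.24 (range over its settings -0.89 to -0.24). The number of the 8 genes at least 1.5-fold lower, 1 (*Nphs1*), was 0 with 5 CPM added, with at least 100 counts and at 2-fold. Over all genes, 435 were at least 2-fold higher and 151 lower with 0.05 CPM added, 66 and 18 with 5 CPM added, and 46 were lower with at least 100 counts, against 261 and 80. The proximal tubule median of -1.33 was 0.32 with at least 100 counts, where fewer genes remain. *Nphs1* and *Ptpro* are limited by depth, with at most 77 and 13 counts.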
